A study of Mus musculus with 28 samples.

Results

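Bru-seq was used to ask how genes resume transcription in mouse embryonic stem cells (mESCs) with and without Elongin A (EloA) during the first 10 min after a block of elongation is lifted. In Bru-seq, living cells take up 5-bromouridine (BrU), and the RNA made during the pulse is pulled down with an antibody and sequenced. The comparison held 4 libraries, 2 from wild-type (WT) cells and 2 from cells labelled EloA null, out of 12 Bru-seq libraries and 28 samples in the series. The cells of all 4 libraries received 1 µM flavopiridol (FP) for 60 min, were washed, and were then incubated with 2 mM BrU for 10 min. The steady-state groups named beside the results received BrU for 10 min without FP, and the 5-min recovery groups received BrU for 5 min after the same FP treatment, also with 2 libraries per genotype. The cells were grown on feeder fibroblasts with LIF and inhibitors of MEK and GSK3 and were depleted of feeders before labelling. The growth notes name the line CCE28 for both genotypes, the treatment notes name CJ7, and neither says how the EloA gene was disrupted or whether the null line is 1 clone. A steady-state library titled EloA null carries a wild-type genotype label and was grouped by its title. The paper calls its Bru-seq replicates independent experiments, and the labels give no more on how the cultures were kept apart.

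Genes were taken into the comparison when their mean value exceeded 0.5 RPKM (reads scaled to the counted length in kilobases and to the size of the library) in either genotype. Of 24984 genes listed, 10241 met this limit, among them 560 that exceeded it in the libraries labelled EloA null alone and 282 in WT alone. The member nearest the limit had a mean of 0.5003 RPKM and the nearest gene left out one of 0.499787 RPKM. Elongin is a complex of EloA, which stimulates RNA polymerase II, with Elongin B and Elongin C, and it can also join a cullin ubiquitin ligase. Flavopiridol inhibits the kinase P-TEFb, which polymerases paused near the promoter need to move on. After washout, polymerases enter gene bodies together as a wave, so that short genes are filled before long ones.

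The libraries held between 18817279 and 28542284 reads in genes. A median of 900 reads, averaged over the 4 libraries, lay behind a gene, 9423 genes had a mean of at least 20 reads and 8500 at least 100. For genes with introns the values rest on the introns, as described under the processing. Eloa itself was not lower in the libraries labelled EloA null: it measured 4.65 and 6.51 RPKM in WT and 8.74 and 8.93 RPKM in EloA null, with no overlap. Its ratio was 1.58 (log2 difference 0.67 ± 0.18 SE, adjusted p = 0.176 over all genes and 0.0681 over genes with at least 20 reads). Nascent RNA over introns does not measure the protein, so it is no check of the genotype here. The paper itself examined EloA protein in WT and null mESCs by immunoblot. It also reports that, at the ribosomal gene Rn45s, the EloA signal by CUT&RUN in null cells was near that of control IgG. Whether the counted part of Eloa lies outside the disrupted part is not given in the sources used here, and EloA null below refers to the label. The stem cell genes Pou5f1 (12.4 and 13.1 RPKM in WT, 18.3 and 16.4 in EloA null), Sox2 (16 and 15.5 against 17.1 and 18.2) and Nanog (28.7 and 32.5 against 34.1 and 25.8) were transcribed in both genotypes. Pou5f1 and Sox2 were higher in EloA null with no overlap, and Nanog overlapped.

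Among the 10241 genes, 964 (9.41%) had a mean higher in EloA null than in WT by more than 1.5-fold and 308 (3.01%) a mean more than 1.5-fold lower. With the added demand that the 2 libraries of one genotype all lie above those of the other, 863 (8.43%) were higher and 230 (2.25%) lower. Lack of overlap without any demand on size was found for 3435 genes (33.5%) in the higher and 2236 (21.8%) in the lower direction. The fit by limma across all genes called 0 genes (0.0%) at an adjusted p under 0.05, while 2098 genes had an unadjusted p under 0.05 and the smallest adjusted p was 0.0618. The same fit run on the 9423 genes averaging at least 20 reads, a limit chosen after the data were seen, called 383 genes, 325 of them higher (3.45%) and 58 lower (0.616%). Of these, 76 of the 325 and 18 of the 58 exceeded the RPKM limit only in the genotype where they were high. In the 383 genes the genotypes did not overlap, and 354 of them also passed the 1.5-fold limit. Their median log2 ratio was 0.86 for those higher, from 0.52 to 3.40, and -0.88 for those lower, from -2.35 to -0.52. Below, a gene is named as called when it passed this second fit, and no such gene passed the fit over all genes. The number of calls depended on the libraries: without WT replicate 1 it was 1008, without EloA null replicate 1 it was 108, and without the genes of chromosome 14 it was 76, all among the 383. The split by direction also moved with the GC content of the genes (given with gene length below): 75.8% of the genes past 1.5-fold were higher, and 57.9% (555 higher, 403 lower) once each library's trend with GC content was removed. It was 58.8% (657 against 460) after quantile normalization.

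**Figure D1:**
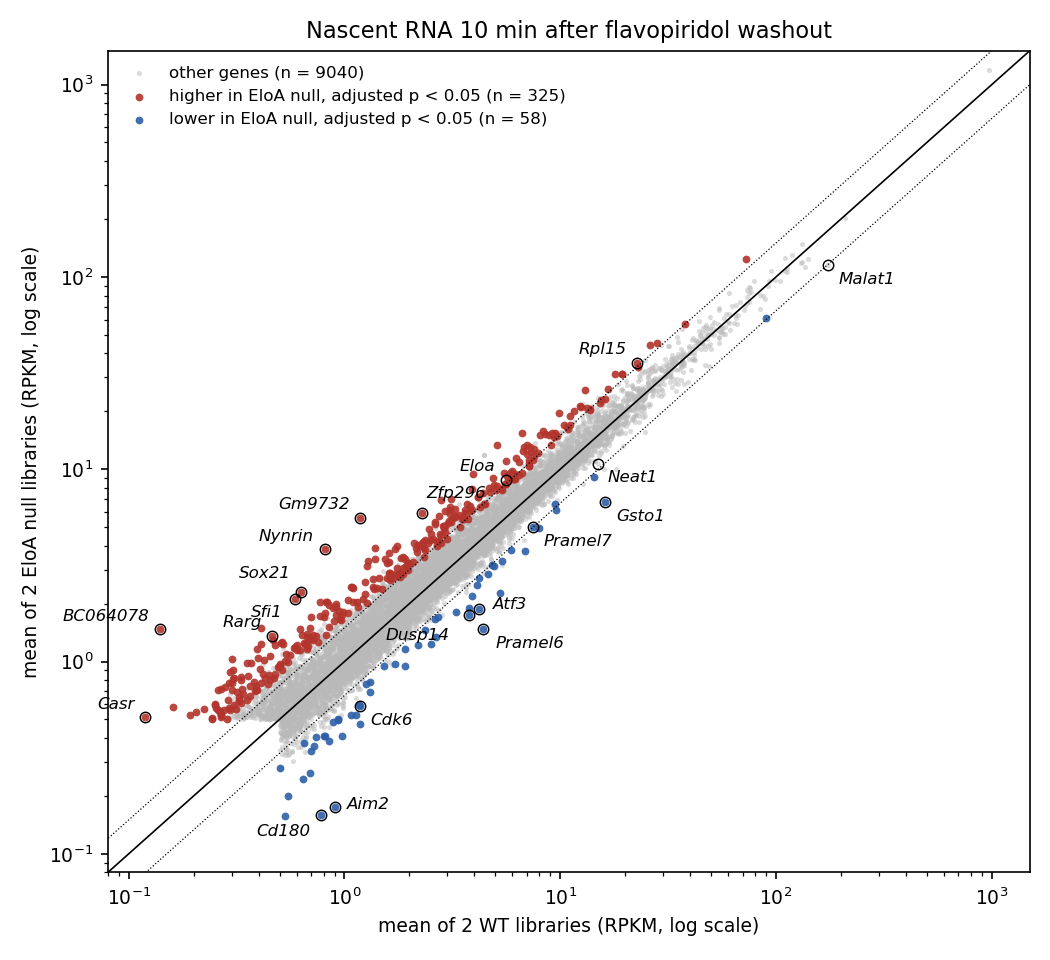
Mean RPKM of the 2 libraries labelled EloA null (vertical axis) against the mean of the 2 WT libraries (horizontal axis), both on log scales, for genes averaging at least 20 reads. Red points are the 325 genes called higher and blue points the 58 called lower, the solid line marks equal values and the dotted lines a 1.5-fold ratio; BC064078, Nynrin and Gm9732 lie farthest above the line and Aim2 and Cd180 farthest below it.

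The largest ratios belonged to genes that were weakly transcribed in WT. BC064078, an uncharacterized gene on chromosome 6 (GRCm38, 128992961 to 129006647), measured 0.154 and 0.124 RPKM in WT and 1.57 and 1.37 in the libraries labelled EloA null. This was a 10.6-fold ratio (log2 difference 2.72 ± 0.18 SE, adjusted p = 0.0618 over all genes and 0.00237 over genes with at least 20 reads), and the WT values rest on 37 and 35 reads. Nynrin on chromosome 14 (55854115 to 55874736) measured 0.828 and 0.789 RPKM in WT and 4.06 and 3.65 in EloA null, a 4.77-fold ratio with the same adjusted p-values. Gm9732, a predicted gene on the same chromosome that overlaps Gm8127 on the other strand, measured 1.27 and 1.08 against 5.47 and 5.7 RPKM, 4.74-fold. Each of these 3 genes was also higher in steady state, by 8.13-fold, 2.99-fold and 4.24-fold. Casr, the calcium-sensing receptor, followed with 0.139 and 0.1 RPKM in WT and 0.538 and 0.492 in EloA null, 4.31-fold and called. Sox21, a transcription factor of neural progenitors, measured 0.616 and 0.645 against 2.53 and 2.05 RPKM. Sfi1, which encodes a centrin-binding protein and overlaps several other genes, measured 0.579 and 0.597 against 2.23 and 2.01 RPKM. In steady state Sox21 was 2.58-fold and Sfi1 2.9-fold higher.

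Zfp296, a zinc finger gene active in pluripotent cells, was the most strongly transcribed of the 15 genes with the largest higher ratios. It measured 2.28 and 2.31 RPKM in WT and 6.19 and 5.64 in the libraries labelled EloA null, a 2.58-fold ratio (log2 difference 1.33 ± 0.1 SE, adjusted p = 0.0779 over all genes and 0.00942 over genes with at least 20 reads). Rarg, the gamma receptor for retinoic acid, measured 0.492 and 0.432 against 1.48 and 1.25 RPKM, 2.95-fold. Of these 15 genes, 6 more were Slco1c1, a carrier of thyroid hormone, Lemd1, Xkr6, Ap1g2, 1700001F09Rik and 4930455B14Rik, whose log2 ratios lay between 1.36 and 1.87. The last of the 15, LOC105245869, was not matched to a position and had a log2 ratio of 1.41. All 15 were called, and 7 of them lie on chromosome 14. For 9 of the 15, BC064078, Casr, 1700001F09Rik, 4930455B14Rik, Rarg, Slco1c1, Xkr6, LOC105245869 and Lemd1, the WT mean was under the 0.5 RPKM limit, so they entered only through EloA null, where they are high, and had to differ. Without the genes of chromosome 14, Lemd1 missed the threshold (adjusted p = 0.0506).

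The largest lower ratios were those of Aim2 and Cd180. Aim2, a sensor of cytosolic DNA on chromosome 1 (173349547 to 173466040), measured 1 and 0.8 RPKM in WT and 0.168 and 0.184 in the libraries labelled EloA null. WT was 5.11-fold higher (log2 difference -1.85 ± 0.21 SE, adjusted p = 0.0886 over all genes and 0.00905 over genes with at least 20 reads). Its annotated span overlaps Cadm3 on the other strand, and whether the counting used strand is not given in the sources used here. Cd180, a relative of the Toll-like receptors, measured 0.897 and 0.653 against 0.161 and 0.157 RPKM, 4.87-fold higher in WT. Gsto1, a glutathione transferase, was the most strongly transcribed gene of this group with 18.1 and 14.4 RPKM in WT and 6.87 and 6.65 in EloA null, 2.4-fold higher in WT. Atf3, a transcription factor induced by stress, measured 4.77 and 3.6 against 1.96 and 1.79 RPKM, 2.23-fold higher in WT (adjusted p = 0.0991 over all genes and 0.0261 over genes with at least 20 reads). Cdkn2a, which encodes inhibitors of the cell cycle, measured 0.835 and 0.547 against 0.292 and 0.237 RPKM. Dusp14, a phosphatase, measured 3.74 and 3.78 against 1.8 and 1.67 RPKM. Tmem38b, a cation channel of the endoplasmic reticulum, measured 2.51 and 2.56 against 1.24 and 1.23 RPKM. The other 8 genes of the 15 largest lower ratios were Pramel6, described below, Pdpn, Liph, Gm525, Dupd1, Igfbp7, Slk and Fam198b, with log2 ratios between -1.57 and -1.02. All 15 were called, and 1 of them, Dupd1, lies on chromosome 14. For 8 of the 15, Aim2, Cd180, Pdpn, Liph, Cdkn2a, Gm525, Dupd1 and Slk, the EloA null mean was under the RPKM limit, so they entered only through WT and had to differ. Without the genes of chromosome 14, Pdpn, Liph, Cdkn2a, Igfbp7 and Fam198b missed the threshold, with adjusted p-values between 0.051 and 0.065.

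Fibroblast markers were weak but mostly lower beside these genes. Of 20 genes that mark feeder fibroblasts, 16 had a lower mean in the libraries labelled EloA null and 4 a higher one, 6 exceeded the RPKM limit and none was called. Their summed level was 19.8 and 16.8 RPKM in WT and 18.1 and 17.2 in EloA null, most of it from Fn1, which measured 10.2 and 9.56 against 10.9 and 11 RPKM. The fibroblast markers Dcn and Lum had at most 4 and 2 reads in any library, and none of the 20 was at 0 in all 4 libraries. Col1a1 measured 1.44 and 1.01 against 1.01 and 0.749 RPKM and Acta2 1.1 and 0.821 against 0.558 and 0.502 RPKM. The part of residual feeder RNA in the lower genes was not tested, and fewer cells of a type cannot be told apart from less RNA per cell in bulk libraries.

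**Figure D2:**
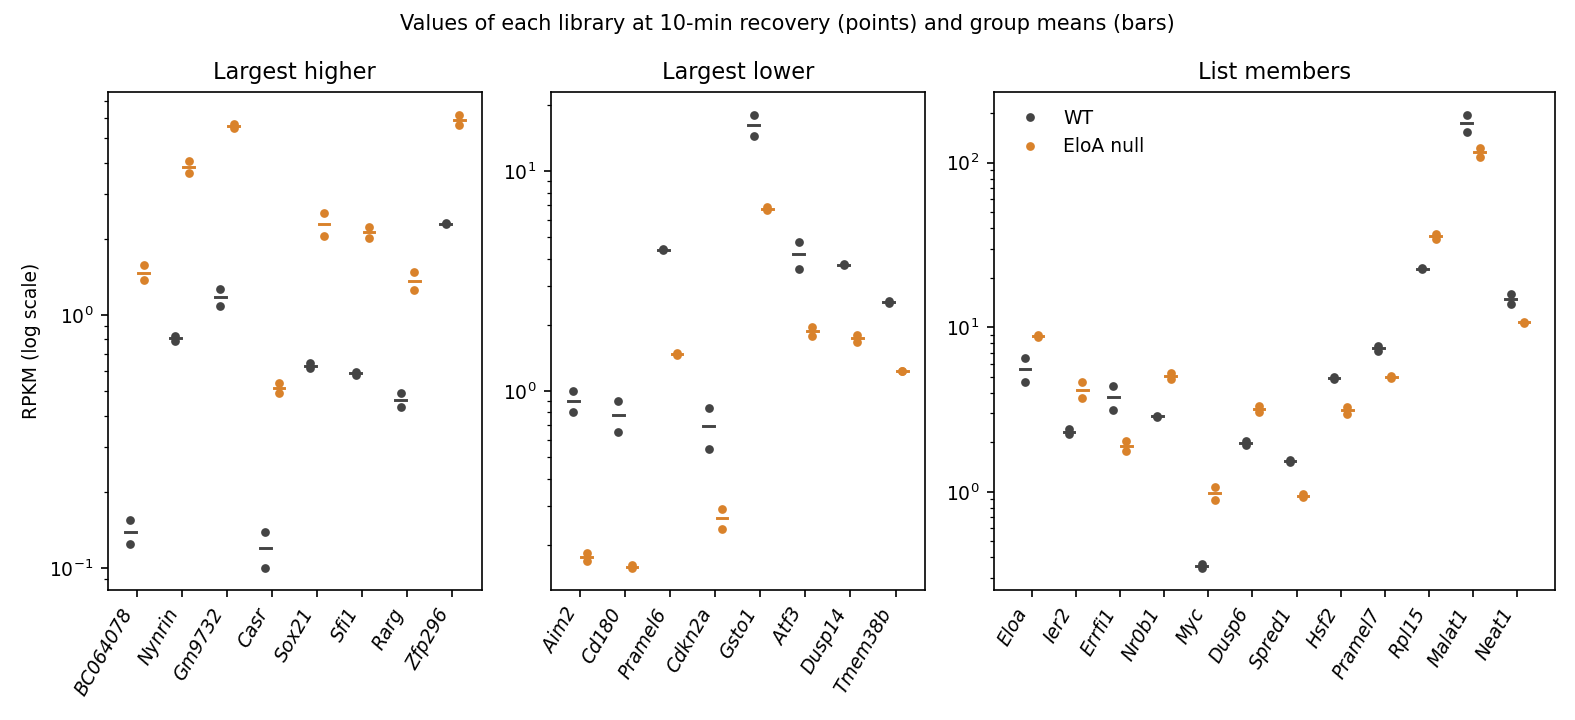
RPKM of each library (points, log scale) and group means (bars) at 10-min recovery for genes with large higher ratios, large lower ratios and members of the gene lists, WT in grey and libraries labelled EloA null in orange. The points of the genotypes do not overlap for any gene shown; Eloa, Malat1 and Neat1 were not called.

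Pramel6 and Pramel7, neighbors on chromosome 2 that are transcribed away from each other and belong to a family active in early embryos and germ cells, were both called lower. Pramel6 measured 4.41 and 4.37 RPKM in WT and 1.46 and 1.49 in the libraries labelled EloA null, 2.97-fold higher in WT (log2 difference -1.51 ± 0.09 SE, adjusted p = 0.0618 over all genes and 0.00795 over genes with at least 20 reads). Pramel7 measured 7.74 and 7.22 against 5.03 and 4.94 RPKM, 1.5-fold higher in WT, and missed the threshold without the genes of chromosome 14 (adjusted p = 0.0555). Both genes lay apart between genotypes, with almost no spread between the EloA null libraries. In steady state the log2 ratios were -1.31 and -0.42, and at 5 min -2.40 and -0.72. Of 6 tested genes in the list of Pramel, Rhox and germline genes, 5 had a ratio under 1 (median log2 ratio -0.36, against 0.06 over all genes tested) and these were the 2 called. The RefSeq promoter sequences of the pair (GRCm38.p6, the 250 bases before the start, on the strand of the gene) are shown with those of Atf3 (called lower) and of Dusp6 (called higher, described below), chosen after the values were seen. Capitals mark every match, on either strand, to the 5 motifs searched. The TATA box was searched as TATAAA. The box bound by the factor NF-Y was searched as CCAAT. For the GC box, which Sp1 binds, the letters were GGGCGG. The E box bound by MYC was taken as CACGTG. The cAMP response element (CRE), which ATF factors bind, was taken as TGACGTCA. No match to one motif overlapped a match to another. Pramel6 lies at chr2:87506315-87506564 on the plus strand, Pramel7 at chr2:87492419-87492668 on the minus strand, Atf3 at chr1:191183334-191183583 on the minus strand and Dusp6 at chr10:99262981-99263230 on the plus strand.
Pramel6: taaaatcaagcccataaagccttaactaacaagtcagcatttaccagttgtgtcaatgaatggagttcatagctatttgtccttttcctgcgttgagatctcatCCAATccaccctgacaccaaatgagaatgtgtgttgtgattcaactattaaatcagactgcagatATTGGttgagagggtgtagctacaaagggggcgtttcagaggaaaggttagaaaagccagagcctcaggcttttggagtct
Pramel7: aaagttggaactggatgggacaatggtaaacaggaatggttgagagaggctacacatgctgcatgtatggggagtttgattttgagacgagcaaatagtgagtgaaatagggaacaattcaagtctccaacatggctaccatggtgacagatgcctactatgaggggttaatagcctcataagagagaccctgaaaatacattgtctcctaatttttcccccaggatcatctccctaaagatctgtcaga
Atf3: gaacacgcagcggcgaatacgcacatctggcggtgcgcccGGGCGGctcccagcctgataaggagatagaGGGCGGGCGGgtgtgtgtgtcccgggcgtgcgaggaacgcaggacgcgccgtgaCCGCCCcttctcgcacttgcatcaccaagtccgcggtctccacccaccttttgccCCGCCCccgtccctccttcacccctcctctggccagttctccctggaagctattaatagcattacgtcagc
Dusp6: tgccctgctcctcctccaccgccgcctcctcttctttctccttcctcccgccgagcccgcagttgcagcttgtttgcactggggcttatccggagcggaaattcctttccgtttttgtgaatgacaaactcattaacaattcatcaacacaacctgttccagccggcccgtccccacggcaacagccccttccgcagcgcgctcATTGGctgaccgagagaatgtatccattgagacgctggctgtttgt

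The letters differed between the Pramel neighbors. The Pramel6 promoter held 2 CCAAT boxes and the Pramel7 promoter 0 of the 5 motifs, while their GC content was 42% and 43.2%. The Atf3 promoter, with 65.2% GC, held 5 GC boxes, 2 of which overlap each other, and the Dusp6 promoter, with 56.4% GC, held 1 CCAAT box. Among 27025 RefSeq promoters of the same length, 34.5% held a CCAAT box, 32.9% a GC box, 13% a TATA box, 6.05% an E box and 1.62% a CRE. These matches describe the letters of the windows and say nothing about binding.

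Of the genes of the Elongin complex and of the elongation machinery tested, 1 was called. Over all genes with at least 20 reads, 3.45% were called higher and 0.616% lower. Elob, the Elongin B gene, measured 6.72 and 6.09 RPKM in WT and 8.73 and 8.87 in the libraries labelled EloA null (adjusted p = 0.143 over all genes and 0.0634 over genes with at least 20 reads). Eloc, the Elongin C gene, measured 27.1 and 28.6 against 25.8 and 25.5 RPKM. The genes of its cullin partners, Cul5 (2.97 and 3 against 3.3 and 3 RPKM) and Cul2 (3.56 and 4.24 against 3.91 and 4.22), had log2 ratios of 0.08 and 0.06. Rbx1, Rnf7, Vhl and Elof1 had log2 ratios between -0.26 and 0.36. Of 15 genes of P-TEFb, its inhibitors and other transcription kinases, 0 were called and 9 had a ratio under 1. Cdk9, the kinase that FP inhibits, measured 10.9 and 11.5 against 16.1 and 13 RPKM, and Hexim1, an inhibitor of P-TEFb, 2.63 and 2.48 against 2.92 and 2.45. Of 8 tested genes of the super elongation complex 0 were called, and the highest ratio was that of Eaf1 on chromosome 14 (21.6 and 18.7 against 29 and 28.4 RPKM). Among 25 tested pausing, elongation and termination factors, 1 was called, Tcea3, which encodes a form of elongation factor TFIIS, with 0.581 and 0.49 against 1.22 and 0.986 RPKM. The call was near the threshold (adjusted p = 0.0329 over genes with at least 20 reads, and 0.0521 without chromosome 14). The medians of these lists, between -0.15 and 0.08 on the log2 scale, lay near the 0.06 of all genes tested.

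Immediate early genes, which respond within minutes to signals, went in both directions. Of 34 tested, 25 had a ratio over 1 (median log2 ratio 0.16, or -0.02 with the GC trend removed). Of the 30 with at least 20 reads, 1 was called higher and 2 lower, beside 3.45% and 0.616% of all genes with at least 20 reads. Ier2 was the one called higher, with 2.41 and 2.23 RPKM in WT and 3.72 and 4.63 in the libraries labelled EloA null. Errfi1, an inhibitor of EGF receptor signaling, was called lower together with Atf3, with 4.39 and 3.16 against 2.04 and 1.76 RPKM. Relative to steady state, in a table normalized separately, Atf3 reached 1.56 times and Errfi1 1.86 times in WT. In EloA null they reached 0.986 and 1.43 times. Genes of their length class, 10 to 20 kb, reached a median of 1.8 times in WT and 1.82 times in EloA null. Nr4a1 (0.882 and 0.67 against 1.66 and 1.28 RPKM) and Srf (3.61 and 2.68 against 6.51 and 4.82 RPKM) did not overlap between genotypes and missed the threshold. Klf4, Cyr61 and Plk2 overlapped between genotypes, with log2 ratios of -0.03, 0.02 and 0.08.

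Of 14 tested genes of the FGF-ERK pathway 12 had at least 20 reads. Of these 3 were called higher and 1 lower, against 3.45% and 0.616% of all genes with at least 20 reads. The median log2 ratio of the 14 was 0.4, or 0.05 with the GC trend removed. Dusp6, a phosphatase that switches off ERK, measured 2.03 and 1.92 RPKM in WT and 3.04 and 3.32 in the libraries labelled EloA null, a 1.61-fold ratio. Spry4, an inhibitor of receptor signaling, measured 6.6 and 6.25 against 9.39 and 9.19 RPKM, and Spry2, a relative on chromosome 14, 15.2 and 15.5 against 22.1 and 22.4 RPKM. Spred1, another inhibitor of the pathway, went the other way, with 1.56 and 1.51 against 0.924 and 0.967 RPKM. Of 13 tested genes of BMP, Nodal and TGF-beta feedback 11 had at least 20 reads, and of these 2 were called higher and 0 lower. The list was balanced, with 6 of the 13 at a ratio over 1 and 7 under 1 (median log2 ratio -0.04). Id3, a target of BMP signaling, measured 2.9 and 2.62 against 4.67 and 4.56 RPKM, and Bambi, a decoy receptor, 5.25 and 5.45 against 7.5 and 8.12 RPKM. Nodal itself measured 9.91 and 10.1 against 17.9 and 13.5 RPKM and was not called. Dusp6 and Id3 rest on 34 to 139 reads per library, and without chromosome 14 none of Dusp6, Spry4, Spred1, Id3 and Bambi passed the threshold, with adjusted p-values between 0.0504 and 0.0626.

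In the MYC network, 2 of 14 tested genes were called, both higher, beside 3.45% called higher of all genes with at least 20 reads. The median log2 ratio of the 14 was 0.22, or 0.01 with the GC trend removed. Myc measured 0.364 and 0.345 RPKM in WT and 0.895 and 1.07 in the libraries labelled EloA null, a 2.77-fold ratio from between 18 and 80 reads (adjusted p = 0.0968 over all genes and 0.017 over genes with at least 20 reads). Its WT mean of 0.354 RPKM was under the limit, so Myc entered only through EloA null, where it is high. Mxd3, a partner that opposes MYC, measured 0.487 and 0.692 against 1.07 and 1.31 RPKM. Mycn, the more strongly transcribed relative, measured 6.81 and 6.11 against 8.25 and 7.66 RPKM and was not called, and MYC targets such as Ncl and Npm1 had log2 ratios of -0.07 and -0.20. Of 28 tested pluripotency genes 27 had at least 20 reads, and of these Zfp296 and Nr0b1 were called higher and 0 lower, beside the same share. Nr0b1, a nuclear receptor of mESCs, measured 2.86 and 2.88 against 5.29 and 4.83 RPKM, 1.76-fold. Of the 28, 15 had a ratio over 1 and 13 under 1 (median log2 ratio 0.06). Those under 1 included Klf5, Esrrb, Tfcp2l1 and Zfp42, with log2 ratios of -0.18, -0.01, -0.24 and -0.29.

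The lists of stress and signaling genes held 2 calls, 1 call or none each, beside 3.45% called higher and 0.616% called lower over all genes with at least 20 reads. Of 26 p53 pathway genes, Tnfrsf10b, a death receptor on chromosome 14, was called higher (3.65 and 3.35 against 5.54 and 5.42 RPKM) and Rrm2b, a subunit of ribonucleotide reductase, lower (1.9 and 1.91 against 1.17 and 1.16 RPKM). Of 26 heat shock and chaperone genes, Hsf2, a heat shock transcription factor, was called lower (4.98 and 4.84 against 2.98 and 3.27 RPKM). Of 16 genes of the ATF4 stress response, Ppp1r15a was called higher (1.25 and 0.842 against 1.96 and 2.23 RPKM), and Atf4 (3.98 and 3.1 against 5.54 and 5.32 RPKM) was not called. Of 7 Wnt targets, Znrf3, which removes Wnt receptors, was called lower (2.45 and 2.27 against 1.49 and 1.42 RPKM). None of 13 tested LIF-STAT3 genes and none of 20 polycomb and DNA methylation genes was called, including Eed (33.5 and 31.8 against 30.8 and 30.1 RPKM). Dhx9 and Tet2 had log2 ratios of -0.03 and -0.01. The called genes Myc, Mxd3, Dusp6, Spry2, Spry4, Id3, Bambi and Ppp1r15a, and the genes with no call named beside them, were named after their values were seen. Without chromosome 14, of the genes named in the last 4 paragraphs, only Atf3, Myc, Zfp296 and Nr0b1 stayed under the threshold.

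Of the lineage markers, few exceeded the RPKM limit. Lama1, a laminin chain listed with primitive endoderm, was called lower (4.18 and 4.02 RPKM in WT against 2.47 and 2.56 in the libraries labelled EloA null; adjusted p = 0.0507 without chromosome 14), while Sparc, of the same list, measured 3.52 and 3.35 against 3.69 and 3.42 RPKM. Of 14 neural markers only Zic2 on chromosome 14 passed the RPKM limit, with 4.99 and 6.22 against 8.97 and 8.11 RPKM, and it was not called. Of 20 genes of 2-cell-like cells in the table, 1 was tested and it was not called. Of 6 tested MHC and interferon genes 5 had at least 20 reads, and Aim2 alone was called, as lower. The list itself went the other way: 4 of the 6 had a ratio over 1, and 3 were more than 1.5-fold higher with no overlap. Its median log2 ratio was 0.5, or 0.25 with the GC trend removed. The calls of Lama1 and Aim2 stand beside 0.616% called lower of all genes with at least 20 reads.

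Calls in the large gene families are to be read beside the same shares, 3.45% higher and 0.616% lower. Of 85 tested cytosolic ribosomal protein genes, 80 had a ratio over 1, with a median log2 ratio of 0.18 against 0.06 over all genes; with the GC trend removed the medians were 0.02 and -0.01. The single call was Rpl15 on chromosome 14, which measured 22.5 and 22.9 RPKM in WT and 34.6 and 37.1 in the libraries labelled EloA null. Of 78 mitochondrial ribosomal protein genes, 59 had a ratio over 1 (median 0.17, or 0.04 with the GC trend removed). Of the 71 with at least 20 reads, Mrpl49, Mrpl52 and Mrps16 were called higher, the last 2 on chromosome 14. Of 45 tested replication-dependent histone genes 25 had a ratio under 1. Only 21 of them had at least 20 reads, and Hist1h3d (4.53 and 5.94 against 1.69 and 2.85 RPKM) and Hist1h2ad (2.58 and 2.71 against 1.31 and 1.37 RPKM) were called lower. Both rest on 14 to 66 reads, histone genes have near-identical copies between which reads could be split, and in steady state their log2 ratios were 0.23 and 1.25. Of 292 tested genes named Zfp, 150 were higher and 142 lower, with 5 calls higher and 3 lower. Of 140 solute carrier genes, 7 were called higher and 1 lower, the last being Slc16a1, a lactate transporter (9.86 and 9.29 against 6.19 and 6.15 RPKM). No call was made among 34 aminoacyl-tRNA synthetase, 30 Mediator, 14 Integrator, 42 general transcription factor, 55 splicing factor and hnRNP, 23 cadherin and 35 ubiquitin-specific protease genes.

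Of 462 long noncoding genes with at least 20 reads, 35 were called higher and 3 lower (median log2 ratio 0.15, against 0.05 for 8706 protein-coding genes, of which 280 were called higher and 54 lower). The hosts of small nucleolar RNAs Zfas1 (14.4 and 12.2 against 22 and 19.4 RPKM), Snhg12 (7.23 and 8.53 against 12.4 and 11.8 RPKM) and Snhg5 (15 and 15.8 against 21.4 and 24.2 RPKM) were called higher. Snord12 and Snora16a, which lie within Zfas1 and Snhg12, were called with them and share their reads or position. Of 108 tested small nucleolar RNA genes 82 had a ratio over 1. The number with at least 20 reads was also 82, and of these 4 were called higher, beside 3.45% of all genes with at least 20 reads. Of 568 tested microRNA genes 69 had at least 20 reads, and the only call, Mir686, lies within Psmb5 on chromosome 14. Among nuclear RNAs of chromosome 19, Malat1 measured 196 and 153 RPKM in WT and 123 and 108 in the libraries labelled EloA null (adjusted p = 0.164 over all genes and 0.0753 over genes with at least 20 reads), and Neat1 16 and 13.8 against 10.8 and 10.6 RPKM (0.152 and 0.0634). Snhg5, the small RNAs and the histone genes named here were chosen after their values were seen. Mascrna, the small RNA cut from the end of Malat1, was called lower with 90.7 and 89.9 against 61.3 and 60.4 RPKM. The ribosomal precursor Rn45s measured 906 and 1030 against 1310 and 1070 RPKM, with no call.

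The ratio varied with gene length. The 847 genes under 1 kb had a median log2 ratio of 0.14, with 219 more than 1.5-fold higher and 162 lower, and 220 of them had at least 20 reads. Genes of 1 to 2 kb had a median log2 ratio of 0.37, those of 2 to 5 kb 0.33, those of 5 to 10 kb 0.24 and those of 10 to 20 kb 0.08. The median was -0.06 at 30 to 60 kb, -0.10 at 60 to 100 kb, -0.09 at 100 to 200 kb and 0.00 above 200 kb. Among the 997 genes of 2 to 5 kb, 20.8% were more than 1.5-fold higher and 1.5% lower, against 2.04% and 2.64% of the 833 genes of 60 to 100 kb. The median log2 level of genes over 30 kb less that of genes under 10 kb, each against the mean of the 4 libraries, came to 0.10 and 0.20 in WT and to -0.21 and -0.11 in EloA null. The difference of -0.31 between genotypes (3405 long and 3467 short genes) had an exact permutation p of 0.333, two-sided, which is the smallest p that 2 against 2 libraries can give. In steady state the same values were 0.07 and 0.12 in WT and -0.12 and -0.13 in EloA null, and at 5 min 0.02 and 0.05 against 0.03 and -0.15. The libraries of the genotypes did not overlap at 10 min and in steady state, and did at 5 min. Without the RPKM limit the 10-min difference was 0.00 (7821 long and 10049 short genes), but that set adds genes at or near 0 RPKM, whose differences come out too small. With a mean above 0.5 RPKM over all 4 libraries it was -0.31. It was -0.30 with a mean above 2 RPKM and -0.31 with at least 20 reads.

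GC content moved with the same ratio. In 5 classes by GC content of the gene's span, the lowest class (median 39.7%) had a median log2 ratio of -0.10 and the highest (median 54.2%) one of 0.34. That highest class held 467 of the 964 genes more than 1.5-fold higher and 91 of the 308 lower. Short genes are richer in GC, with a median of 50.7% at 2 to 5 kb and 42.4% at 60 to 100 kb. With each library's trend with GC content removed, the long-against-short difference was -0.13, from 0.05 and 0.06 in WT and -0.06 and -0.08 in EloA null. The medians by class then ran from 0.09 at 2 to 5 kb to -0.08 at 60 to 100 kb. The part of GC content in the difference by length was not tested.

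**Figure D3:**
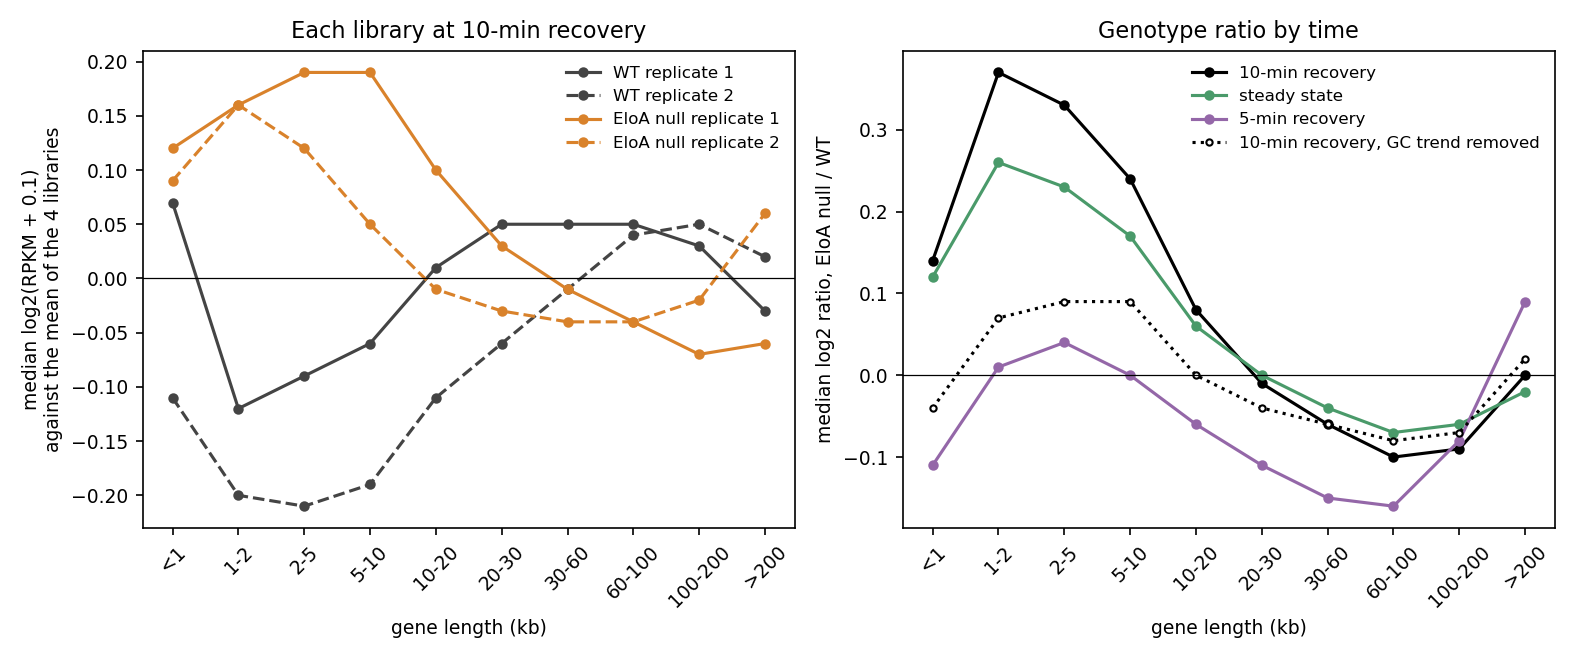
Left, median log2(RPKM + 0.1) of each library against the mean of the 4 libraries at 10-min recovery, by class of gene length in kb; right, median log2 ratio of EloA null over WT by class at 10-min recovery, in steady state and at 5-min recovery, and at 10 min with the GC trend removed. Genes of 1 to 10 kb lie above 0 in both libraries labelled EloA null and below 0 in both WT libraries at 10 min, and the dotted line is flatter than the solid one.

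Recovery differed between the length classes more than between the genotypes. Relative to steady state, in a table that was normalized separately, genes of 10 to 20 kb reached a median of 1.8 times their level in WT and 1.82 times in the libraries labelled EloA null. Genes of 60 to 100 kb reached 0.665 and 0.642 times, and genes of 100 to 200 kb 0.642 and 0.63 times. Genes of 2 to 5 kb reached 1.31 and 1.4 times. Over all genes with at least 20 reads the medians were 1.21 and 1.23. As RPKM is scaled to the size of each library, these ratios compare shares of a library and do not give absolute recovery.

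Chromosome 14 stood apart from the other chromosomes. Of its 355 tested genes with at least 20 reads, 345 had a ratio over 1, and the median log2 ratio was 0.53 (1.44-fold), with quartiles of 0.34 and 0.77. On the other chromosomes the median lay between -0.05 and 0.17. The 385 tested genes of chromosome 14 include 168 of the 964 that were more than 1.5-fold higher and 3 of the 308 that were lower, and 119 of the 325 genes called higher. The median came to -0.22 and -0.30 in WT and to 0.27 and 0.26 in EloA null, against the mean of the 4 libraries, so the genotypes lay apart in each library. It was 0.51 in steady state and 0.47 at 5 min, and 0.50 at 10 min with the GC trend removed. In windows of 25 Mb along the chromosome the medians were 0.60, 0.51, 0.59, 0.41 and 0.27. Genes of chromosome 14 named above, such as Nynrin, Gm9732, Sox21, Spry2, Rpl15 and Tnfrsf10b, are to be read against this median. Spry2, Rpl15 and Tnfrsf10b, with log2 ratios of 0.54, 0.66 and 0.65, lay within its quartiles, and Nynrin, Gm9732 and Sox21, with 2.25, 2.25 and 1.86, lay above them. Kat6b, on the same chromosome, measured 11.7 and 13 RPKM in WT and 12.1 and 13.3 in EloA null.

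**Figure D4:**
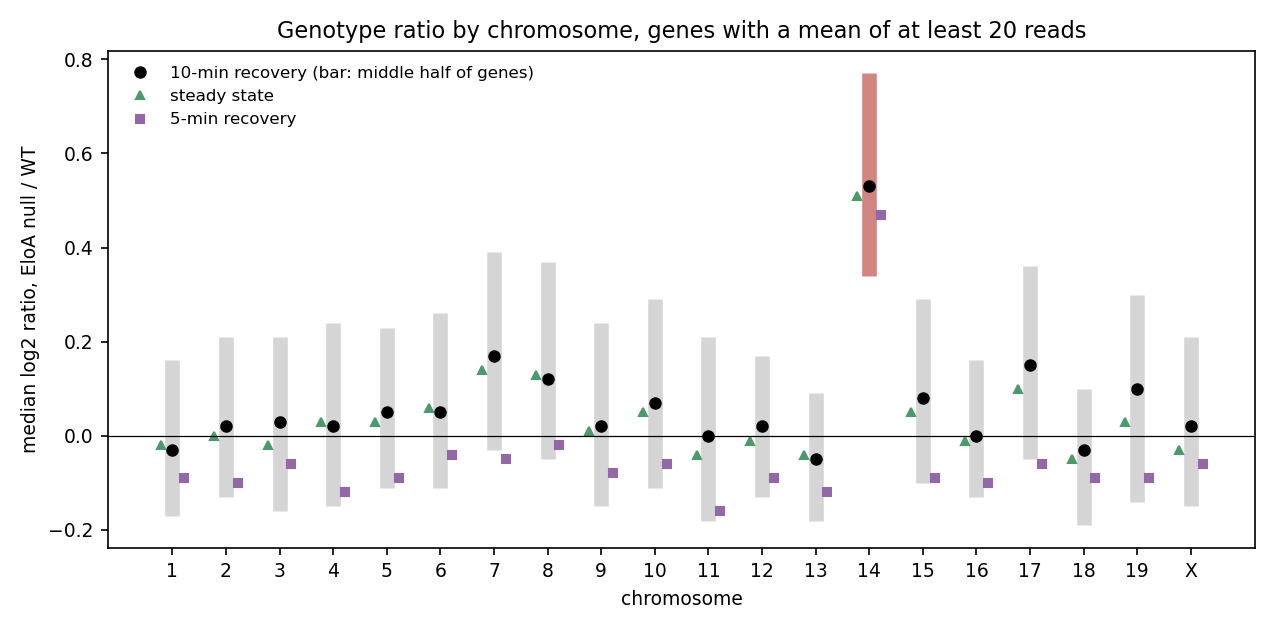
Median log2 ratio of EloA null over WT for the genes of each chromosome with a mean of at least 20 reads, at 10-min recovery (black points, with bars between the quartiles), in steady state (triangles) and at 5-min recovery (squares). Chromosome 14 lies at 0.53, 0.51 and 0.47, and the other chromosomes at 10 min lie between -0.05 and 0.17.

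Most genes called at 10 min differed the same way without FP. Of the 325 genes called higher, 298 were also higher with no overlap in steady state and 1 was lower with no overlap, and their median log2 ratio was 0.65 there and 0.56 at 5 min. Of the 58 called lower, 55 were also lower with no overlap in steady state and 1 higher, with medians of -0.53 and, at 5 min, -0.86. Lack of overlap alone is frequent: at 10 min it held for 33.5% of all genes tested in the higher and 21.8% in the lower direction. Its share over all genes in steady state was not counted, so the counts of 298 and 55 have no baseline there. Over all genes tested the median log2 ratio was 0.04 in steady state and -0.07 at 5 min. The ratio was farther from 1 at 10 min than in steady state for 286 of the 325 and 54 of the 58; the members were chosen on the 10-min values, so this is a description. Of the 863 genes past 1.5-fold with no overlap in the higher direction, 338 met the same limits in steady state, 39.2% of these and 47.7% of the 708 found there. In the lower direction 46 were shared, 20% of the 230 and 27.1% of the 170. With the 5-min table the shares were 20.3% of the 863 and 44.6% of the 392 higher genes, and 37.8% of the 230 and 19.7% of the 441 lower genes. The tables of the 3 conditions hold different libraries and were normalized separately, so no test was made between them.

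For some genes the ratio at 10 min departed from that in steady state, which was not tested. Dupd1, a phosphatase gene, measured 1.14 and 0.796 RPKM in WT and 0.465 and 0.359 in the libraries labelled EloA null at 10 min, and 0.56 and 0.418 against 0.392 and 0.443 in steady state, where the genotypes overlapped. Gna12, a G protein subunit, measured 0.825 and 0.798 against 0.409 and 0.416 RPKM at 10 min and 2.58 and 2.73 against 1.95 and 2.4 in steady state, a log2 ratio of -0.98 against -0.29. Neat1, which was 1.4-fold higher in WT at 10 min, measured 6.42 and 6.23 RPKM in WT and 6.44 and 6.91 in EloA null in steady state. It reached 2.36 times its steady-state level in WT and 1.6 times in EloA null. In the other direction, Adam15, a membrane protease, measured 0.66 and 0.377 against 1.29 and 1.07 RPKM at 10 min and 0.824 and 0.748 against 0.948 and 0.974 in steady state. Bad, a regulator of cell death, had a log2 ratio of 1.03 at 10 min and 0.28 in steady state, and was called. Btc, Fuca1 and 2310030G06Rik had log2 ratios of 0.87, 0.89 and 0.76 at 10 min and 0.04, 0.12 and 0.08 in steady state. Tcf19 (0.43 against 1.19) and 1110019D14Rik (-0.24 against -0.98) were nearer to equality in recovery than in steady state, and the steady-state ratio of Tcf19 rests on 1 library (1.52 and 1.91 RPKM in WT, 2.09 and 5.7 in EloA null). Litaf, Ogfrl1, Cdkn2a, Atf3 and Cd180 were also among the 10 genes farthest below their steady-state ratio, with departures between -0.74 and -0.59 on the log2 scale.

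**Figure D5:**
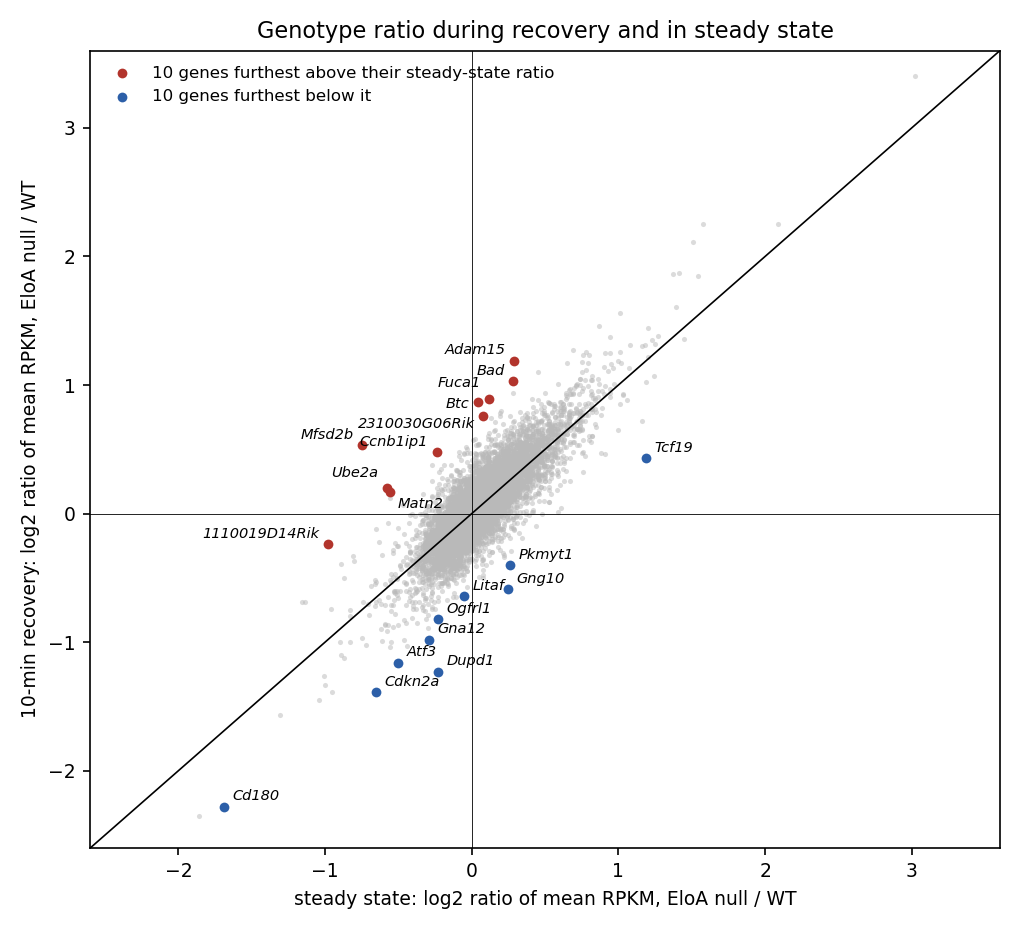
Log2 ratio of mean RPKM, EloA null over WT, at 10-min recovery (vertical axis) against steady state (horizontal axis) for genes averaging at least 100 reads in both tables (grey). Red points are the 10 genes farthest above their steady-state ratio and blue points the 10 farthest below it among genes with no overlap at 10 min; the line marks equal ratios, with Mfsd2b farthest above it (0.53 against -0.75) and Dupd1 farthest below (-1.23 against -0.23).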

How the data were processed

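Sequenced were 4 Bru-seq libraries of the 10-min recovery, 2 per genotype, grouped by title. Per the labels and methods, the authors aligned paired-end reads with Bowtie2 2.3.4.3 to mm10 and dm3, kept unique alignments, separated strands with SAMtools, counted reads over whole RefSeq genes with featureCounts 1.6.1 and deposited RPKM values made with edgeR, in 1 table per condition with replicates kept apart. Their columns of group means were not used. Whether the counting used strand is not given in the sources used here.

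The values are RPKM, not counts, so no count test was used. Genes with a mean above 0.5 RPKM in either genotype were tested with limma 3.58.1 (R 4.3.3, trend, two-sided) on log2(RPKM + 0.1), where differences of low genes come out too small, with Benjamini-Hochberg adjustment. Fold changes are ratios of mean RPKM. Reads per gene and library sizes were worked out from the steps between RPKM values and annotated lengths (a counted length was found for 99.95% of tested genes). These lengths were those of introns for genes with introns, whereas the methods speak of whole genes. A second fit took genes averaging at least 20 reads. Symbols matched the GRCm38 RefSeq table for 24420 genes, by an older symbol for 423 and not for 141. The GC trend was removed by lowess (span 0.3). Promoter sequences are from RefSeq. Scripts were tested on simulated data. Python 3.11.15 was used.

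Named were the Elongin genes, the 15 largest higher and lower ratios and up to 4 list members per direction (past 1.5-fold, no overlap, at least 100 reads), genes shown by the study, and the 10 largest departures from steady state in each direction. Members and lists were chosen with earlier results of these data known. Alternatives varied the pseudocount, filters, scaling, limit, spread, replicate block, GC trend, chromosome 14 and single libraries.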

Additional observations from a re-analysis of the deposited data

Results flagged for a closer look

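Genes whose libraries lay apart between the genotypes in opposite directions in 2 conditions are given here, looked for among all called genes and the genes named in the text. The difference between the conditions was not tested, and the values come from tables normalized separately. Lack of overlap alone is frequent: at 10 min it held for 33.5% of all genes tested in the higher and 21.8% in the lower direction. How many of all genes meet the rule was not counted, and the reads behind the 5-min values are not given here. Between 10-min recovery and steady state, the log2 ratio of EloA null over WT was -0.48 and 0.08 for Neat1, -0.59 and 0.25 for Gng10, -0.40 and 0.26 for Pkmyt1, 0.53 and -0.75 for Mfsd2b, 0.20 and -0.58 for Ube2a, 0.17 and -0.56 for Matn2, 0.48 and -0.24 for Ccnb1ip1, and -0.18 and 0.16 for Klf5, the last 2 on chromosome 14. Cul5, the cullin partner of Elongin, had 0.08 at 10 min, -0.12 in steady state and -0.21 at 5 min. Its 10-min libraries barely lay apart, with 2.97 and 3 RPKM in WT and 3.3 and 3 in EloA null. Rn45s had 0.30 at 10 min and -0.23 at 5 min.

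The other 10 of the 20 genes were called at 10 min. Against steady state these were Hist1h2ad (-0.98 at 10 min and 1.25 in steady state) and 5730408K05Rik (0.66 and -0.20). Against 5 min they were Mxd3 (1.01 and -0.66), Aup1 (0.62 and -0.33), Chpf2 (0.87 and -0.26), Best2 (0.98 and -1.09), Fv1 (1.56 and -1.42) and, on chromosome 14, Reep4 (1.24 and -0.90), Psme1 (1.41 and -0.97) and Chchd1 (1.48 and -0.24).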

How the results depend on the processing

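Over all genes, the 0 limma calls became 5 with a pseudocount of 1, 9 with a mean above 2 RPKM, 11 with libraries centred, 6 with quantile normalization, 264 with all 12 libraries sharing the spread, 26 with robust variances, 11 with the GC trend removed, 864 with voom weights from the reads, 383 with at least 20 reads, and 0 to 33 without 1 library. The 383 calls with at least 20 reads became 605 centred, 683 with quantile normalization, 76 without chromosome 14, and 108 to 1008 without 1 library. The 964 higher genes became 4434 without a filter, 328 with a mean above 2 RPKM, 280 at 2-fold, 555 with the GC trend removed, 221 when chromosome 14 and genes under 20 reads were left out as well, and 787 to 1468 without 1 library. The 308 lower genes became 2228, 71, 126, 403, 177 and 263 to 418, and 137 with at least 20 reads. The long-against-short difference of -0.31 became -0.21 with a pseudocount of 1, -0.30 with a mean above 2 RPKM and -0.13 with the GC trend removed. It was 0.00 without a filter, where genes at or near 0 RPKM come in, and -0.37 to -0.26 without 1 library. The voom, robust, GC and 20-read settings were chosen after seeing the data, and the cause of these changes was not tested.

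With the replicate number as a block, 0 genes were called over all genes (3018 at an unadjusted p under 0.05) and 2725 with at least 20 reads. The deviations of same-numbered libraries correlated at 0.103 over genes, with only 2 pairs, so the numbers were not taken as pairs.

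Of 120 named genes, 6 changed direction in some setting, none of them called. These were Cul5 (quantile -0.01), Cul2 (quantile -0.03, without 1 library -0.06 to 0.19), Vhl (centred -0.03, quantile -0.05, GC removed -0.06, without 1 library -0.11 to 0.17, and -0.02 without WT replicate 2), Nanog (without 1 library -0.24 to 0.16, and 0.05 without WT replicate 2), Kat6b (centred -0.02, quantile -0.05, without 1 library -0.04 to 0.12, and -0.03 without EloA null replicate 2) and Dhx9 (GC removed 0.06). Tet2, at 0.00, lay on either side of 0, from -0.11 to 0.10 without 1 library. With 2 libraries per genotype the exact permutation p cannot go below 0.333, and under 20 reads lay behind 276 of the 964 genes higher and 171 of the 308 lower.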
